A study of Drosophila melanogaster with 16 samples.

Results

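Germ line and maternal transcripts of Drosophila melanogaster were followed through whole embryos in which a head patterning gene had been switched on by heat. The 10 genes listed were dhd, nos, osk, bcd, vas, pgc, aub, piwi, gcl and tud, and every probe set whose identifier leads to one of these symbols was taken. This gave 12 probe sets for 9 genes, of 14070 probe sets and 11270 named genes in all. The identifier stem NOS leads both to nanos and to Nos, the nitric oxide synthase gene, so its 2 probe sets are described but not counted. RNA was measured on 16 single-colour expression arrays. In line 5A, called hsp-otd (4 arrays), the fly gene otd is driven by a heat shock promoter, and in the hsp-Otx2 line (4 arrays) the same kind of promoter drives the human gene Otx2. Wild-type Oregon-R embryos were either heat-shocked (3 arrays) or untreated (5 arrays). Embryos of the 3 heat-shocked groups were collected over 12 h, aged for 4 h, held at 37 °C for 25 min and left for 25 min at 25 °C. For the untreated embryos no time of collection or ageing is labelled, so wherever they are the control, heat, collection, age and batch cannot be told apart. All embryos were labelled as stages 10 to 17, with younger ones left out, and were pooled as 200 mg of tissue. Each transgene is represented by 1 line, and a heat shock promoter is active in most tissues, so neither transgene is limited to the germ line.

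In Drosophila the egg is loaded with maternal mRNA, and part of it is cleared before gastrulation. At the posterior pole the germ plasm, a cytoplasm built by Oskar with Vasa, Tudor and Aubergine, gathers RNAs that the pole cells inherit, and these cells found the germ line. In germ cells small RNAs bound by Piwi-family Argonautes (piRNAs) silence transposons, and in the embryo most germ line transcripts are restricted to few cells.

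Array means of the deposited intensity ran from 785.6 to 997.5 in hsp-otd, from 608.8 to 1015.8 in hsp-Otx2, from 459.9 to 649.6 in heat-shocked wild type and from 598.4 to 998.4 in untreated wild type. The values were therefore put on a common scale by quantile normalization and raised to a floor of 20, and all levels below are normalized intensities. A probe set passed at an adjusted p below 0.05 (limma, Benjamini-Hochberg over the 12301 probe sets tested). The number of arrays limits the precision, and p-values reflect the spread among arrays alone, which may be technical. A probe set at the floor in all arrays of a group shows no spread there, which can make its SE and p-value too small. The otd transcript itself, oc, averaged 6322 in hsp-otd, 111.8 in hsp-Otx2, 71.2 in heat-shocked wild type and 20.2 in untreated wild type (geometric means), and hsp-otd over heat-shocked wild type was 6.47 on the log2 scale (SE 0.54, adjusted p = 4.29e-07). Heat-shocked wild type was uneven here, and the value was 7.35 without its replicate 1 and 5.56 without its replicate 2. Human Otx2 was not measured. Replicates 4 and 5 of untreated wild type were closer to each other (a correlation of 0.947 over all tested probe sets) than to replicates 1 to 3 (0.881 to 0.91), which correlated at 0.891 to 0.913 among themselves. Replicates 4 and 5 were also closer to hsp-otd (0.878 to 0.891) than replicates 1 to 3 were (0.827 to 0.854). The same held for hsp-Otx2 (0.833 to 0.851 against 0.785 to 0.811). In whole embryos, fewer cells of a type and less RNA per cell cannot be told apart.

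More of the germ line and maternal genes passed as higher than as lower in each transgenic line over heat-shocked wild type. One gene, osk, passed the filter on dim probe sets through the hsp-Otx2 arrays alone and so had to differ there, and the counts are of the other 8 genes. In hsp-otd, dhd, aub, pgc, vas and tud were higher and bcd was lower, which is 5 higher and 1 lower of 8, where 16.6% of all genes tested were higher and 13% lower. The bcd call rests on BCD_r_at, 1 of its 2 probe sets, and the lower share of 12.5% is near that of all genes. In hsp-Otx2, dhd, aub, pgc and vas were higher, or 4 of 8, and none was lower, against 18% higher and 20% lower among all genes. Set directly against hsp-Otx2, hsp-otd had dhd and bcd lower, or 2 of 8, and none higher, against 14.1% lower and 17.1% higher among all genes. The median log2 fold change of the 8 genes was 0.94 in hsp-otd over heat-shocked wild type and 1.04 in hsp-Otx2 over heat-shocked wild type, where all genes had medians of 0.008 and -0.12. Both comparisons share the 3 heat-shocked wild-type arrays. The genes and the lists below were named with earlier results of these data known, so these counts and medians are descriptions.

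**Figure D1:**
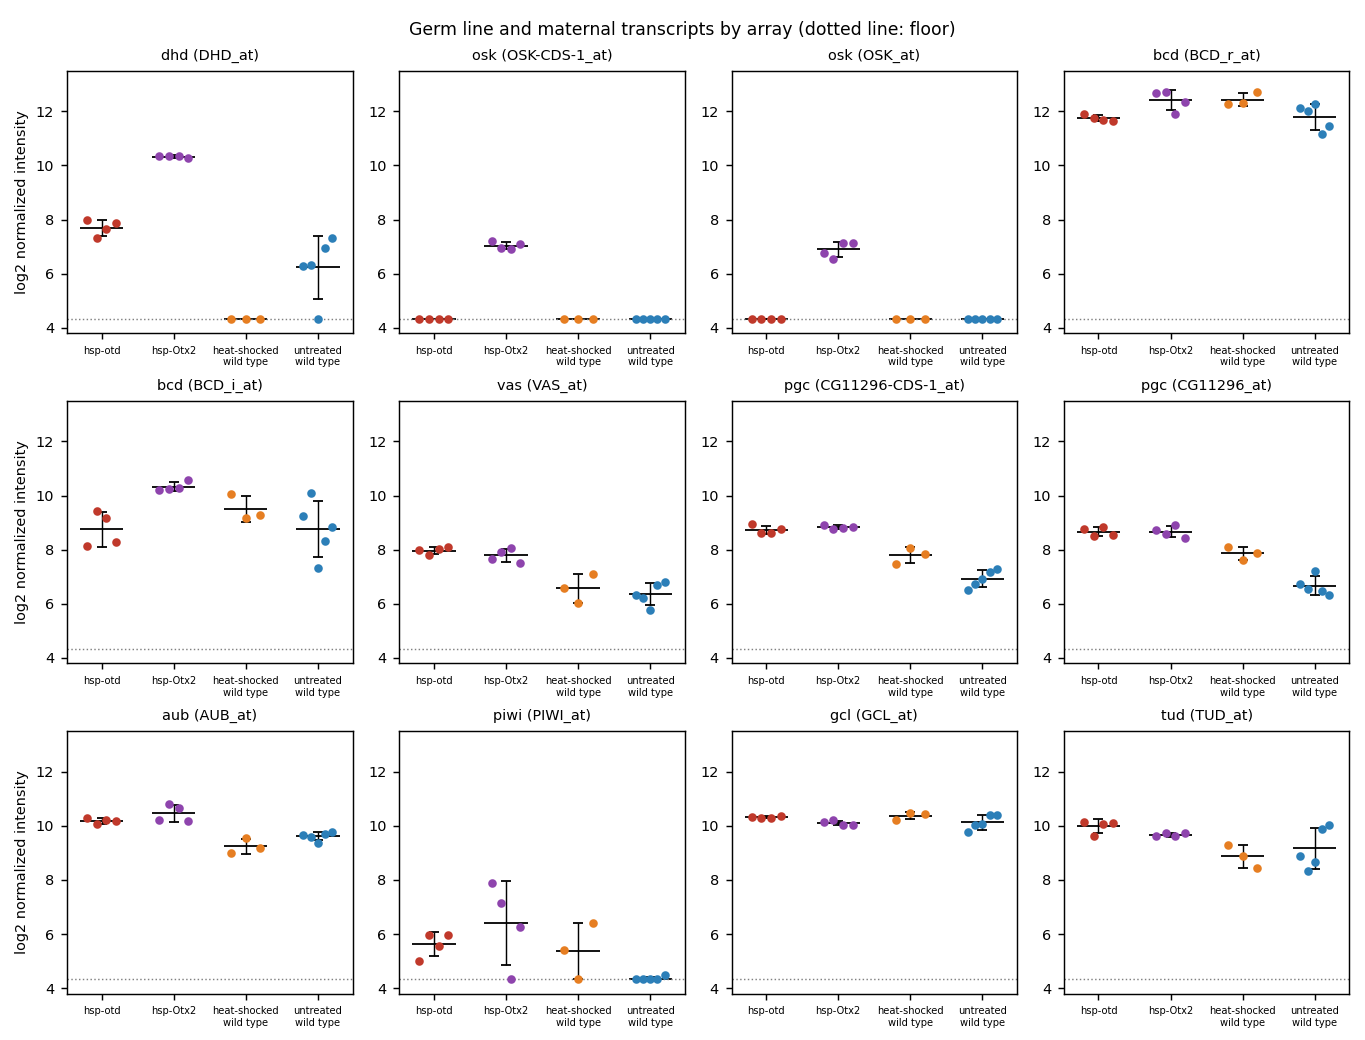
Normalized intensity (log2) of the 12 probe sets, 1 point per array, in hsp-otd (n = 4), hsp-Otx2 (n = 4), heat-shocked wild type (n = 3) and untreated wild type (n = 5). Bars are the mean ± SD of log2 levels, and the dotted line is the floor of 20. The dhd points of hsp-Otx2 lie at 1223 to 1316 and those of heat-shocked wild type on the floor, while osk leaves the floor in hsp-Otx2 alone.

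Over heat-shocked wild type the widest differences were those of dhd (deadhead), which encodes a thioredoxin made in the female germ line, loaded into the egg and needed to remodel the chromatin of the incoming sperm. Its level was 250.1, 158.4, 199.2 and 232.6 in hsp-otd and 1288, 1316, 1286 and 1223 in hsp-Otx2, while all 3 heat-shocked wild-type arrays were below the floor. Untreated wild type read 77.8, 79.5, below the floor, 123.9 and 161.4 in replicates 1 to 5. The 3 heat-shocked groups did not overlap: hsp-Otx2 was highest, hsp-otd between, and heat-shocked wild type not above the floor in any array. The level of dhd was at least 10.3-fold higher in hsp-otd than in heat-shocked wild type (log2 fold change 3.37, SE 0.52, adjusted p = 0.000175). In hsp-Otx2 it was at least 63.9-fold higher (5.998, SE 0.52, adjusted p = 2.09e-07). Between the lines it was lower in hsp-otd than in hsp-Otx2 by 6.17-fold (-2.63, SE 0.48, adjusted p = 0.000458).

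Against untreated wild type the dhd values were less firm. The hsp-Otx2 level was 16.9-fold higher (log2 fold change 4.08, SE 0.45, adjusted p = 1.68e-06), with no overlap between the groups. In hsp-otd it was 2.74-fold higher (1.45, SE 0.45, adjusted p = 0.0239), but the lowest hsp-otd array, at 158.4, lay below untreated replicate 5. That call was lost against untreated replicates 4 and 5 alone (0.55, adjusted p = 0.179), without hsp-otd replicate 1 (1.36, adjusted p = 0.0648) or 4 (1.39, adjusted p = 0.0612), and when the fit held the compared groups alone (adjusted p = 0.076), so it passed in 16 of 20 settings. In heat-shocked over untreated wild type dhd was 3.78-fold lower (-1.92, SE 0.49, adjusted p = 0.0102). That fold is no bound, since untreated replicate 3 was raised to the floor as well, and the groups overlapped there. The call passed in 15 of 19 settings. It was lost with a floor of 50 (-0.86, adjusted p = 0.0595), with a generalised log (-1.47, adjusted p = 0.077), against untreated replicates 1 to 3 alone (-1.27, adjusted p = 0.0649) and when the fit held the compared groups alone (adjusted p = 0.0945). TrxT, the male germ line thioredoxin gene that lies next to dhd in the RefSeq gene order, averaged 22.8 in hsp-otd, 28.1 in hsp-Otx2, 28.3 in heat-shocked wild type and 20.7 in untreated wild type, close to the floor throughout. Of the 3 genes tested from the thioredoxin list, none was higher in either line over heat-shocked wild type. The somatic thioredoxin gene Trx-2 was lower in hsp-otd (log2 fold change -0.27, adjusted p = 0.00162) and in hsp-Otx2 (-0.19, adjusted p = 0.0116), but both signs turned without normalization and with median scaling. Txl, a thioredoxin-like gene, was lower in hsp-Otx2 (-0.44, adjusted p = 0.0267; 0.22 without normalization), a call lost without hsp-Otx2 replicate 2 or 3 or heat-shocked wild-type replicate 1 or 2 (adjusted p = 0.0692 to 0.164). It was higher in hsp-otd than in hsp-Otx2 (0.57, adjusted p = 0.00361; 0.86, adjusted p = 0.0615 without normalization).

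Among the determinants made in the mother, osk (oskar), which builds the germ plasm, was above the floor in hsp-Otx2 alone. Its probe set OSK-CDS-1_at read 146.1, 122.7, 119.8 and 135.4 in the 4 hsp-Otx2 arrays, and the other probe set, OSK_at, read 107.5, 94.0, 142.0 and 139.2 there. Every array of hsp-otd, heat-shocked wild type and untreated wild type was below the floor for both probe sets. The hsp-Otx2 level was at least 6.53-fold higher than in heat-shocked wild type by the first probe set (log2 fold change 2.71) and at least 5.94-fold higher by the second (2.57). In hsp-otd over hsp-Otx2 the values were -2.71 and -2.57. Both probe sets entered the test only through the hsp-Otx2 arrays, so these are values with no test.

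The anterior determinant bcd (bicoid), whose maternal mRNA sits at the front of the egg and encodes a homeodomain protein, had 2 probe sets that differed in level and partly in pattern. The brighter, BCD_r_at, read 3857, 3403, 3291 and 3192 in hsp-otd, 6492, 6743, 3810 and 5231 in hsp-Otx2, 4983, 5109 and 6637 in heat-shocked wild type and 4500, 4082, 4983, 2289 and 2778 in untreated wild type. The hsp-otd arrays were all below those of heat-shocked wild type, and the log2 fold change was -0.69 (SE 0.24, adjusted p = 0.039). That direction turned without normalization (0.20), and the call passed in 6 of 16 settings. It was lost with median scaling (-0.38, adjusted p = 0.174), with no filter on dim probe sets (adjusted p = 0.0717), with array weights (-0.65, adjusted p = 0.0829), with a replicate block (-0.59, adjusted p = 0.0739) and without each of hsp-otd replicates 2, 3 and 4 and heat-shocked wild-type replicates 2 and 3 (-0.56 to -0.74, adjusted p = 0.063 to 0.153).

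The dimmer probe set, BCD_i_at, read 281.2, 691.8, 584 and 310.2 in hsp-otd, 1187, 1209, 1249 and 1535 in hsp-Otx2, 1067, 573.6 and 617.1 in heat-shocked wild type and 605.5, 1107, 161.6, 323.8 and 454.7 in untreated wild type. Here the hsp-Otx2 arrays lay above all others, and the other 3 groups overlapped. In hsp-otd over heat-shocked wild type this probe set gave -0.74 (SE 0.48, adjusted p = 0.263) and passed in 0 of 16 settings. In hsp-otd over hsp-Otx2 the dimmer probe set gave -1.57 (SE 0.44, adjusted p = 0.0122) and the brighter -0.67 (SE 0.22, adjusted p = 0.0307). Without normalization both missed the threshold (-1.34, adjusted p = 0.0762, and -0.32, adjusted p = 0.205), and the brighter also missed it when any of 6 arrays was left out (-0.56 to -0.68). Neither passed in hsp-Otx2 over heat-shocked wild type, at -0.02 (95% interval -0.53 to 0.48) for the brighter and 0.83 (-0.18 to 1.85) for the dimmer. The suffixes _r and _i mark probe sets that the array maker built under relaxed rules or from fewer probes.

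Of the genes that form germ plasm and nuage, the granules around germ cell nuclei, vas (vasa), a DEAD-box RNA helicase and the classical germ line marker, was higher in both lines. It read 251.2, 221.2, 257.9 and 276.2 in hsp-otd, 202.4, 242.7, 268.6 and 183.8 in hsp-Otx2, 96.2, 65.3 and 138.2 in heat-shocked wild type and 79.8, 73.4, 54.4, 104 and 110.8 in untreated wild type. Neither line overlapped either wild-type group. The log2 fold change over heat-shocked wild type was 1.39 in hsp-otd (SE 0.35, adjusted p = 0.00738) and 1.22 in hsp-Otx2 (SE 0.35, adjusted p = 0.0119), and the second call was lost without heat-shocked wild-type replicate 2 (0.94, adjusted p = 0.06). Between the lines the difference was 0.18 (95% interval -0.51 to 0.86), and heat-shocked over untreated wild type gave 0.22 (-0.49 to 0.93).

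The tud (tudor) transcript, which encodes the scaffold with Tudor domains that holds Vasa and Aubergine in polar granules, read 1129, 789.2, 1081 and 1112 in hsp-otd, 778.1, 844.6, 781.1 and 848.4 in hsp-Otx2, and 629.4, 466.5 and 350.1 in heat-shocked wild type. It was higher in hsp-otd than in heat-shocked wild type (log2 fold change 1.12, SE 0.33, adjusted p = 0.019), a call lost without heat-shocked wild-type replicate 3 (0.91, adjusted p = 0.0926). The value in hsp-Otx2 was 0.79 (SE 0.33, adjusted p = 0.0722) with no overlap of arrays. Untreated wild type split, at 477.4, 319.4 and 409.8 in replicates 1 to 3 and 949.5 and 1049 in replicates 4 and 5. Set against all 5, hsp-otd was higher (0.83, adjusted p = 0.0431), but the call passed in 9 of 20 settings. Against replicates 4 and 5 alone the value was 0.03 (adjusted p = 0.966), and the call was lost without hsp-otd replicate 1, 3 or 4 or untreated replicate 1, 2 or 3 (0.62 to 0.80, adjusted p = 0.0897 to 0.103).

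Of the 2 Argonaute genes, aub (aubergine), whose protein binds piRNAs in nuage and germ plasm, was among the firmest differences. It read 1248, 1059, 1179 and 1169 in hsp-otd, 1191, 1776, 1612 and 1150 in hsp-Otx2, 510, 743.8 and 581.2 in heat-shocked wild type and 804.2, 765.8, 658.2, 832.4 and 880.8 in untreated wild type. All arrays of both lines lay above all wild-type arrays. The log2 fold change over heat-shocked wild type was 0.94 in hsp-otd (SE 0.16, adjusted p = 0.000445) and 1.22 in hsp-Otx2 (SE 0.16, adjusted p = 1.99e-05), and both passed under every alternative run. Over untreated wild type the values were 0.57 (adjusted p = 0.00624) and 0.84 (adjusted p = 0.000131), and the first was lost against untreated replicates 4 and 5 alone (0.44, adjusted p = 0.113). The lines did not differ past the threshold (-0.28, 95% interval -0.59 to 0.04).

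Its neighbour piwi, which encodes the nuclear Argonaute of the pathway and is separated from aub by 2 genes in the RefSeq order, was near the floor. It read 32.1, 62.8, 47.6 and 62.8 in hsp-otd, and 238.4, 141.7, below the floor and 77.6 in hsp-Otx2. It read 42.6, below the floor and 84.4 in heat-shocked wild type, and was at or just above the floor in untreated wild type, the highest array being 22.2. The hsp-Otx2 arrays were spread more widely than those of the other groups, and all groups but hsp-otd had arrays at the floor. Only hsp-Otx2 over untreated wild type passed (log2 fold change 2.06, SE 0.58, adjusted p = 0.00893), a call lost against untreated replicates 4 and 5 alone (1.98, adjusted p = 0.093). Without hsp-Otx2 replicate 3 piwi also passed over heat-shocked wild type (1.72, adjusted p = 0.0193).

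The remaining genes act in the pole cells themselves. The small protein of pgc (polar granule component) holds transcription down in newly formed pole cells, and its 2 probe sets, found through the older identifier CG11296, behaved alike. CG11296-CDS-1_at read 494.8, 390.8, 391.4 and 433.4 in hsp-otd, 485.5, 434.6, 440.9 and 459.3 in hsp-Otx2, 176.9, 264.8 and 232 in heat-shocked wild type and 91.2, 107.2, 120.8, 143.5 and 154.9 in untreated wild type. The groups formed 3 steps, with both lines together at the top, heat-shocked wild type next and untreated wild type lowest, and no overlap between steps. Over heat-shocked wild type this probe set gave 0.94 in hsp-otd (SE 0.23, adjusted p = 0.0066) and 1.04 in hsp-Otx2 (SE 0.23, adjusted p = 0.00218), and CG11296_at gave 0.80 (SE 0.25, adjusted p = 0.0253) and 0.80 (SE 0.25, adjusted p = 0.0208). The hsp-otd call of CG11296_at was lost without hsp-otd replicate 1 or 3 or heat-shocked wild-type replicate 2 or 3 (0.68 to 0.81, adjusted p = 0.053 to 0.0911), and its hsp-Otx2 call without hsp-Otx2 replicate 3 (0.71, adjusted p = 0.0663) or heat-shocked wild-type replicate 2 (0.67, adjusted p = 0.0798). Over untreated wild type the 2 probe sets gave 1.81 and 2.01 in hsp-otd and 1.91 and 2.00 in hsp-Otx2 (largest adjusted p = 4.14e-06). Between the lines they gave -0.10 (95% interval -0.55 to 0.36) and 0.008 (-0.49 to 0.50).

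The gcl (germ cell-less) transcript, whose product is needed for pole cells to form, was the most even of the set. It read 1292, 1261, 1251 and 1300 in hsp-otd, 1117, 1195, 1042 and 1049 in hsp-Otx2, 1194, 1412 and 1377 in heat-shocked wild type and 867.1, 1032, 1068, 1346 and 1338 in untreated wild type. No comparison passed, with log2 fold changes of -0.05 in hsp-otd (95% interval -0.33 to 0.22) and -0.27 in hsp-Otx2 (-0.54 to 0.007) over heat-shocked wild type, and both signs turned with median scaling (0.27 and 0.006). The probe sets of the NOS stem, which would include nanos, a translational repressor of the germ line, passed in no comparison either, although NOS-CDS-1_at did in heat-shocked wild type over untreated replicates 4 and 5 alone (0.70, adjusted p = 0.0258). NOS-CDS-1_at ranged from 320.9 to 476.8 in hsp-otd, from 296 to 382.1 in hsp-Otx2, from 404.1 to 482.8 in heat-shocked wild type and from 88.6 to 504.9 in untreated wild type, the widest group. NOS_at was dimmer, with 2 of 4 arrays above the floor and a highest of 65.6 in hsp-otd, 3 of 4 and 138.3 in hsp-Otx2, a range of 52.8 to 241.8 in heat-shocked wild type and of 38.0 to 125.1 in untreated wild type. Its widest difference was hsp-otd over heat-shocked wild type (-1.64, adjusted p = 0.0838), where the arrays overlapped.

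**Figure D2:**
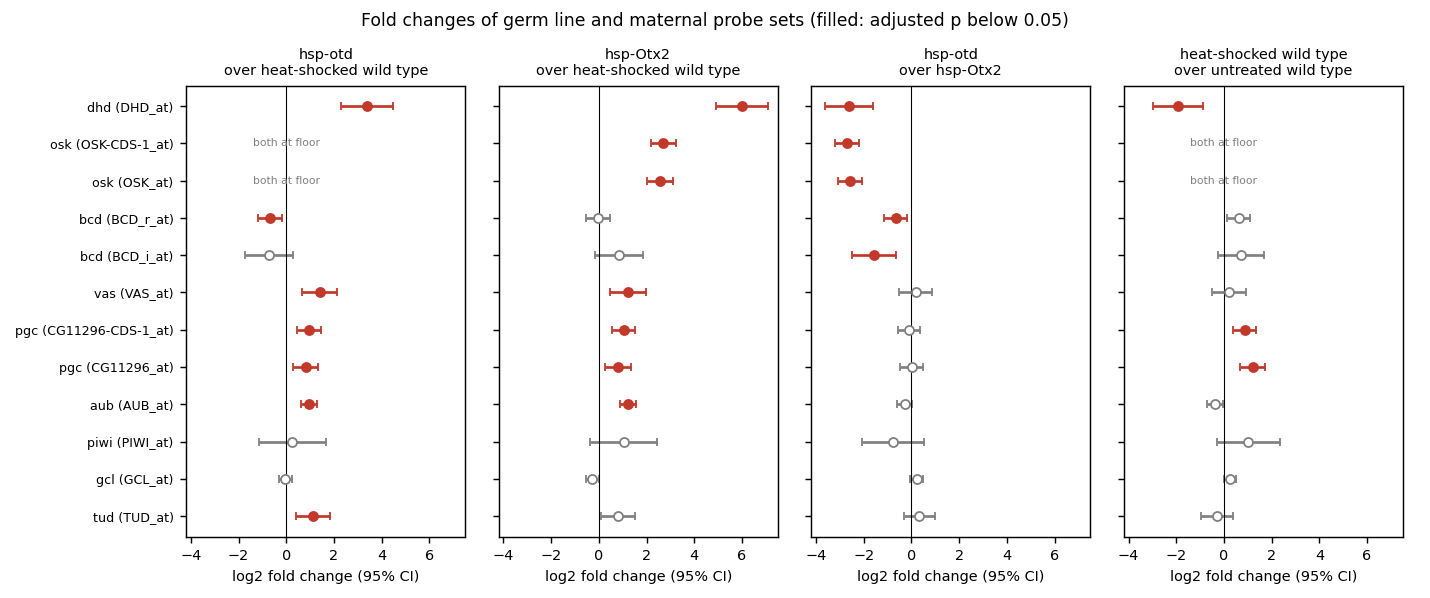
Log2 fold changes with 95% intervals (limma) of the 12 probe sets in 4 comparisons, filled where the adjusted p was below 0.05. Against heat-shocked wild type, vas, pgc and aub lie at similar positive values in hsp-otd and hsp-Otx2, while dhd lies at 3.37 in hsp-otd and 5.998 in hsp-Otx2. Both groups were at the floor for osk where so written, and its other points had to differ, since osk was above the floor in hsp-Otx2 alone.

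Other genes of these pathways were taken from 7 lists, and the 3 that passed with the smallest adjusted p are named per list and comparison. The counts of each list are read against the share of all genes tested that passed, which was 18% higher and 20% lower in hsp-Otx2 over heat-shocked wild type. There 10 of 22 piRNA pathway genes tested were higher and none lower, with a median log2 fold change of 0.77 against -0.12 for all genes, and this count was 10 and 0 also without normalization and with median scaling. Of all probe sets called in this comparison, 86.4% were higher without normalization and 60.4% with median scaling, against 47.1% as reported. List counts under those scalings carry this shift and are not read against the shares above. The piRNA cluster protein gene rhi averaged 501.3 in hsp-Otx2 and 20.4 in heat-shocked wild type, where 1 of 3 arrays was above the floor (4.62, SE 0.35, adjusted p = 5.86e-08). The silencing factor gene nxf2 averaged 1103 in hsp-Otx2 and 59.6 in heat-shocked wild type (4.21, SE 0.44, adjusted p = 1.93e-06). The Tudor-domain gene tej averaged 1773 in hsp-Otx2 and 113.7 in heat-shocked wild type (3.96, SE 0.51, adjusted p = 1.43e-05).

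Germ plasm assembly and RNA localization genes other than exu had 9 higher and 1 lower of 17 in the same comparison, with a median of 0.51 (with exu, 10 and 1 of 18, 11 and 0 with median scaling and 10 and 0 without normalization). The bicoid mRNA localization gene exu behaved like osk, averaging 243.1 in hsp-Otx2 and lying at the floor in every array of the other groups, at least 12.2-fold higher in hsp-Otx2 than in heat-shocked wild type (3.60). It too entered the test only through hsp-Otx2, so this is a value with no test. The RNA-binding gene stau, whose protein anchors bcd and osk mRNA, rose by 0.80 (SE 0.11, adjusted p = 2.18e-05), and mago, of the exon junction complex, by 0.53 (SE 0.07, adjusted p = 2.84e-05).

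Translational control genes were split in hsp-Otx2, with 6 higher and 6 lower of 17, or 5 and 6 of 16 without cup (8 and 4 of 17 with median scaling, 6 and 0 without normalization). Among them, the poly(A) polymerase gene wisp, which lengthens maternal mRNA tails at egg activation, averaged 2173 in hsp-Otx2 and 67.8 in heat-shocked wild type (5.00, SE 0.46, adjusted p = 3.84e-07). The repressor gene cup averaged 206.4 in hsp-Otx2 and was at the floor in every array of the other groups, so that it too had to differ, and tral rose by 1.92 (SE 0.09, adjusted p = 3.28e-10). Egg activation and meiosis genes had 7 higher and 6 lower of 20 (8 and 5 with median scaling, 7 and 2 without normalization), led by polo, a mitotic kinase gene (2.86, SE 0.20), with fzy (1.23) and ncd (1.06) next (largest adjusted p = 1.53e-07). Maternal axis determinants had 5 higher and 4 lower of 18 (7 and 3 with median scaling, 6 and 1 without normalization). The terminal receptor gene tor averaged 1595 in hsp-Otx2 and 36.8 in heat-shocked wild type, where 2 of 3 arrays were above the floor (5.44, SE 0.85, adjusted p = 0.000101), and the Dorsal inhibitor gene cact rose by 1.06, while wbl fell by 1.42 (largest adjusted p = 4.89e-05; wbl missed the threshold without normalization, at -1.0 and adjusted p = 0.0619). Germ cell migration and differentiation genes had 2 higher and 4 lower of 13 (2 and 2 with median scaling, 2 and 0 without normalization). The germ line gene stwl rose, at least 6.56-fold (2.71, adjusted p = 0.000694), whereas the lipid phosphatase gene wun2 (-0.65) and the germ line factor gene ovo (-1.01) fell (largest adjusted p = 7.87e-05) but missed the threshold without normalization (-0.02 and -0.37).

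In hsp-otd over heat-shocked wild type, 16.6% of all genes tested were higher and 13% lower. Of all probe sets called here, 92.8% were higher without normalization and 71.6% with median scaling, against 53.8% as reported, and list counts under those scalings carry this shift. The piRNA list had 4 higher and 0 lower of 22 (6 and 0 with median scaling, 10 and 0 without normalization), a share of 18.2% higher that lies near that of all genes. Here nxf2 was at 2.77 (SE 0.44, adjusted p = 0.000258), papi, a Tudor-domain gene, at least 5.44-fold higher (2.44, SE 0.60, adjusted p = 0.00659), and mael at 2.17 (SE 0.64, adjusted p = 0.0187). The mael call was lost without heat-shocked wild-type replicate 3 (1.22, adjusted p = 0.113) or replicate 2 (2.09, adjusted p = 0.0547). Germ plasm genes had 5 higher and 2 lower of 18, which became 9 and 0 with median scaling and 10 and 0 without normalization. Their leading genes were stau (0.83), the hnRNP gene glo (0.68) and rump (1.77), which encodes an RNA-binding protein of nanos mRNA localization (largest adjusted p = 0.000132).

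Translational control genes had 4 higher and 4 lower of 17 in hsp-otd, which became 6 and 1 with median scaling and 6 and 0 without normalization. Here tral (0.47) and the helicase gene me31B (0.49) were higher, and Fmr1 was lower (-1.21, SE 0.23, adjusted p = 0.00101), though it missed the threshold without normalization (-0.35, adjusted p = 0.302). Egg activation genes had 7 higher and 4 lower of 20 (8 and 3 with median scaling, 8 and 1 without normalization), led by fzy (0.86), polo (1.40) and sub (1.83; largest adjusted p = 0.00064). Maternal axis genes had 2 higher and 1 lower of 18 (4 and 1 with median scaling, 5 and 0 without normalization). The 2 higher ones were dl, the dorsal morphogen gene (1.28, SE 0.12, adjusted p = 1.41e-06), and wbl (1.05, SE 0.20, adjusted p = 0.00132), and the lower one, grk (-1.72, adjusted p = 0.0308), passed in 8 of 16 settings. Germ cell genes had 2 higher and 3 lower of 13 (3 and 3 with median scaling, 6 and 2 without normalization). Of these, stwl was at least 5.23-fold higher (2.39, adjusted p = 0.00302; 1.07, adjusted p = 0.0944 with a floor of 50). The gap junction gene zpg averaged 24.5 in hsp-otd and 148.9 in heat-shocked wild type (-2.60, SE 0.64, adjusted p = 0.00655).

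Set directly against each other, hsp-otd had lower levels than hsp-Otx2 in 8 of 22 piRNA genes and higher levels in none, where 14.1% of all genes tested were lower and 17.1% higher (0 and 9 with median scaling, 0 and 7 without normalization). Of all probe sets called between the lines, 71% were higher in hsp-otd without normalization and 57.1% with median scaling, against 53.3% as reported. The log2 fold changes of hsp-otd over hsp-Otx2 were -3.69 for rhi (SE 0.33), -2.88 for tej (SE 0.47) and -1.18 for the silencing factor gene Panx (SE 0.19; largest adjusted p = 0.000155). In germ plasm genes other than exu 6 of 17 were lower and 3 higher (with exu, 7 and 3 of 18, and 1 and 2 without normalization), with par-1 at -0.80 and mago at -0.54 (largest adjusted p = 8.92e-06), and par-1 and mago missed the threshold without normalization (-0.57 and -0.20). In translational control genes other than cup 6 of 16 were lower and 3 higher (with cup, 7 and 3 of 17, and 4 and 1 without normalization), with tral at -1.46 and the helicase gene bel at 0.91 (largest adjusted p = 2.07e-07). In egg activation genes 5 of 20 were lower and 2 higher (2 and 2 without normalization), with the meiotic phosphatase gene twe at -2.62, polo at -1.46 and the kinesin gene Klp3A at 1.30 (largest adjusted p = 2.03e-05). In maternal axis genes 6 of 18 were lower and 3 higher (2 and 2 without normalization), with wbl at 2.47, dl at 1.10 and cact at -1.01 (largest adjusted p = 2.7e-06; cact missed the threshold without normalization). In germ cell migration and differentiation genes 5 of 13 were higher and 2 lower (4 and 0 without normalization), with wun2 at 0.55, the receptor gene Tre1 at 0.64 and Fpps at 0.45 (largest adjusted p = 0.000162; Fpps missed the threshold without normalization).

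**Figure D3:**
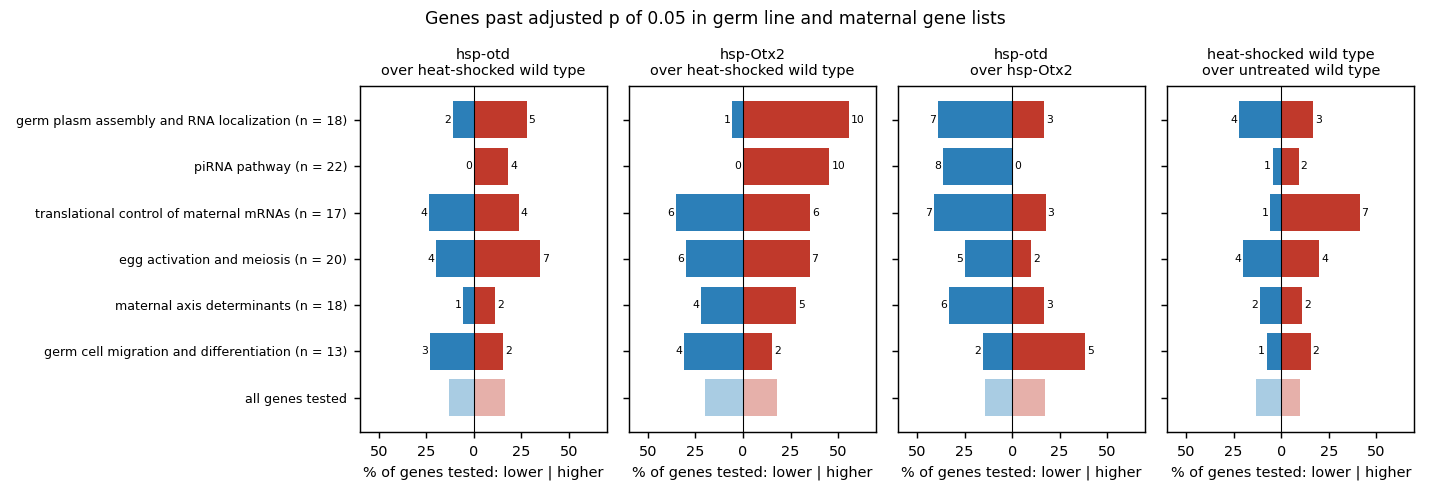
Share of the genes tested in 6 lists, and of all genes tested, that were higher (right of 0) or lower (left) at an adjusted p below 0.05 in 4 comparisons; numbers at the bars are counts of genes. In hsp-Otx2 over heat-shocked wild type the germ plasm and piRNA lists have 10 higher genes each, with 1 and 0 lower; exu, 1 of the 10 germ plasm genes, was above the floor in hsp-Otx2 alone.

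**Figure D4:**
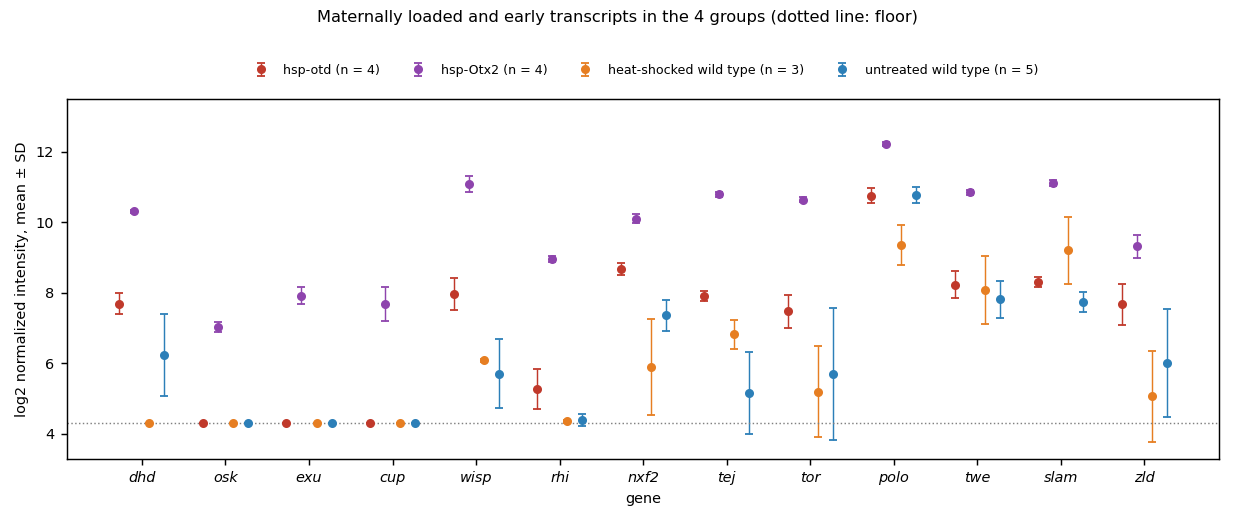
Normalized intensity (log2, mean ± SD over arrays) of dhd, osk, 9 genes of the lists and 2 blastoderm markers (slam, zld) in hsp-otd (n = 4), hsp-Otx2 (n = 4), heat-shocked wild type (n = 3) and untreated wild type (n = 5). The dotted line is the floor of 20. The genes drawn were selected from those named as higher in hsp-Otx2 than in another group, so their common direction is no result about the lists. Genes that were lower in hsp-Otx2 than in heat-shocked wild type, such as wbl, wun2, ovo and bnk, are not drawn. For the genes drawn, osk, exu and cup are at the floor in the groups other than hsp-Otx2.

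Heat-shocked wild type was set against untreated wild type to see what the pulse, with the unlabelled differences in collection, went with. Of the 9 genes, 1 was higher (pgc) and 1 lower (dhd), where 9.83% of all genes tested were higher and 13.3% lower. The 2 pgc probe sets gave 0.87 (SE 0.22, adjusted p = 0.00959) and 1.20 (SE 0.24, adjusted p = 0.0017), and both missed the threshold without normalization (0.46 and 0.76) and when the fit held the compared groups alone (adjusted p = 0.181 and 0.0818). With untreated replicates 4 and 5 alone as the control, CG11296-CDS-1_at also missed it (0.57, adjusted p = 0.0624), while bcd rose by 1.12 (BCD_r_at, adjusted p = 0.00149) and tud fell by 1.10 (adjusted p = 0.00209). With replicates 1 to 3 alone, tud gave 0.24, the opposite sign, and gcl passed at 0.43 (adjusted p = 0.00848).

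The lists below are read against the same 9.83% higher and 13.3% lower among all genes. Of all probe sets called here, 14.7% were higher without normalization and 35.1% with median scaling, against 45.8% as reported, and list counts under those scalings carry this shift. Of the translational control list 7 were higher and 1 lower of 17 (7 and 1 with untreated replicates 1 to 3 alone, 8 and 0 with 4 and 5 alone, 4 and 1 with median scaling, 2 and 1 without normalization). The repressor gene smg, which directs the clearance of maternal mRNA, averaged 496.3 in heat-shocked and 44.3 in untreated wild type (3.49, SE 0.64, adjusted p = 0.000797). The repressor gene pum, whose protein acts with Nanos, averaged 212.3 in heat-shocked and 51.3 in untreated wild type (2.05, SE 0.39, adjusted p = 0.00118). The calcipressin gene sra, needed for egg activation, averaged 1232 in heat-shocked and 260.8 in untreated wild type (2.24, SE 0.12, adjusted p = 4.69e-10). Lower genes included polo (-1.41) and ncd (-0.71) of the egg activation list, which had 4 higher and 4 lower of 20 (2 and 4 without normalization). Others were csul (-1.36), which encodes a methyltransferase for Tudor ligands, rump (-1.23) and mago (-0.51) of the germ plasm list, with 3 higher and 4 lower of 18 (1 and 3 with untreated replicates 1 to 3 alone or with a replicate block, 1 and 4 with median scaling, 0 and 3 without normalization). The adjusted p of these 5 genes was at most 0.00201. Of the maternal axis list 2 were higher and 2 lower of 18, with hb at -0.97 (adjusted p = 0.000134) and Tl, the Toll receptor gene, at 0.94 (adjusted p = 0.000319; 0.46, adjusted p = 0.435 without normalization). Of the germ cell list 2 were higher and 1 lower of 13, and of the piRNA list 2 higher and 1 lower of 22. Here tej (1.67) passed in 13 of 19 settings and nxf2 (-1.46) in 14 of 19.

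Against untreated wild type, 5 of the 8 genes other than osk were higher in hsp-otd and none lower (background 16% higher and 14.5% lower), which became 2 with untreated replicates 4 and 5 alone. In hsp-Otx2, 6 of 8 were higher and none lower (background 18.6% higher and 22.9% lower). These were dhd, bcd, vas, pgc, aub and piwi, and vas gave 1.44 (SE 0.31, adjusted p = 0.00115). The count takes bcd by its brighter probe set, which gave 0.61 (adjusted p = 0.0291) with overlapping arrays and passed in 11 of 20 settings. That call was lost without hsp-Otx2 replicate 1, 2 or 4 or untreated replicate 4 or 5 (0.45 to 0.63, adjusted p = 0.0501 to 0.0965), while the dimmer probe set gave 1.56 (SE 0.42, adjusted p = 0.00679) and passed in 20 of 20.

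Markers of other stages and tissues moved with some of these differences. The summed level of 7 markers of the cellularizing blastoderm ran from 2009 to 2390 in hsp-otd, from 3946 to 4414 in hsp-Otx2, from 2142 to 3077 in heat-shocked wild type and from 1687 to 2601 in untreated wild type. Of them, slam, which acts in cellularization, averaged 2218 in hsp-Otx2 and 589.6 in heat-shocked wild type, and the genome activator gene zld 638.5 in hsp-Otx2 and 33.5 in heat-shocked wild type. Of 6 markers tested, these 2 passed as higher in hsp-Otx2, where 18% of all genes tested were higher and 20% lower. The marker bnk was lower (407.2 in hsp-Otx2 against 982.5 in heat-shocked wild type, missing the threshold without normalization). The other 3 tested did not pass, and term was at the floor in all groups. The sum of the markers in hsp-Otx2 lay above that of every array of the other groups. In hsp-Otx2 over heat-shocked wild type slam and zld were higher, as were dhd, osk and many germ plasm and piRNA genes. The part of the markers in those results was not tested. In hsp-otd the sum overlapped that of heat-shocked wild type, with zld higher (204 in hsp-otd) and slam lower (318.6 in hsp-otd, a call made in 5 of 16 settings). The members dhd, vas, pgc, aub and tud were higher in that comparison, and the part of the markers was not tested there either.

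Of the other tissues, 13 eggshell and yolk markers summed to between 4810 and 5289 in hsp-otd, 4218 and 5355 in hsp-Otx2, 4854 and 6394 in heat-shocked wild type and 6911 and 8492 in untreated wild type. Their sum in either line overlapped that of heat-shocked wild type, and Cp16 and Yp3 were at the floor in all groups. The 4 somatic gonad markers measured, of 5, summed to between 955.8 and 2142 over all arrays, with tj at the floor in every group. The 9 late cuticle markers summed to between 9260 and 10220 in hsp-otd, 6871 and 8397 in hsp-Otx2, 5662 and 8200 in heat-shocked wild type and 45560 and 46880 in untreated wild type. Of these, 7 were higher and 1 lower in hsp-otd over heat-shocked wild type, where 16.6% of all genes tested were higher and 13% lower. In hsp-Otx2 over heat-shocked wild type 6 were higher and 2 lower, against 18% and 20% of all genes. All 9 were lower in each heat-shocked group than in untreated wild type. Of all genes, 13.3% were lower than in untreated wild type in heat-shocked wild type, 14.5% in hsp-otd and 22.9% in hsp-Otx2. Between the lines 3 were higher and 1 lower in hsp-otd and 5 did not pass, where 17.1% of all genes tested were higher and 14.1% lower. The cuticle sum in hsp-Otx2 overlapped that of heat-shocked wild type. Some cuticle markers thus passed in every comparison, fewer between the lines, and their part in the results was not tested.

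Over the 16 arrays the genes whose log2 levels were most like those of single members were drawn from 4346 candidates above the floor in every array. They were eIF3a (Pearson r = 0.934) and gw (0.928) for aub, Gcn5 (0.966) and Cth (0.956) for the first pgc probe set, Pdcd4 (0.946) and mora (0.937) for the second, and RalGPS (0.941) and Art3 (0.938) for vas. For tud they were RpL36 (0.924) and Atg14 (0.909), for gcl BNIP3 (0.877) and Xrp1 (0.852), for the brighter bcd probe set Act88F (0.927), and for the dimmer MSBP (0.906) and amrt (0.867). The 16 arrays share 4 groups, so these values largely describe group levels, and they carry no test.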

How the data were processed

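Total RNA of 16 embryo samples was hybridised to 1 array each (25 µg of RNA per the labels' protocols). The authors deposited intensities on a linear scale, between -3962 and 34260, 1 for each probe set of an array, and 75.1% of them lay above 20. The image reading, the summary over probes and any scaling between arrays are not given in the sources used here. Groups and replicate numbers came from sample titles.

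The stem of each probe-set identifier was looked up in a RefSeq table of gene names (Release 6), which gave 1 symbol to 13036 probe sets, several to 468 and none to 534, and 32 control probe sets were left out. The other 14038 were quantile normalized, and the log2 was taken after values under 20 had been set to that floor. Those above the floor in at least 3 arrays (12301, for 10087 genes) were tested, and 1737 dim ones were not. The linear model of limma 3.58.1 (R 4.3.3) had a coefficient for each group, with lmFit, trended eBayes and 12 residual degrees of freedom, and was tested two-sided for 6 comparisons, with Benjamini-Hochberg adjustment over all probe sets tested. The fit was tested on simulated data. In counts of genes each gene stands for its probe set of highest mean, which for bcd is BCD_r_at. No sequence was used, and gene positions in the RefSeq table served only to order neighbouring genes.

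The genes, the 7 gene lists and the 4 marker lists were chosen with earlier results of these data known. Named are all members, oc, up to 3 passing genes per list and comparison by smallest adjusted p, and the 2 genes most like each member above the floor in every array, except where a result is not reported here. Alternatives were other scalings, floors, filters, array weights, a replicate block, the compared groups alone and leaving out each replicate. Splits of untreated wild type (replicates 1 to 3, and 4 and 5) and counts without genes above the floor in 1 group only were added after seeing the data.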

Additional observations from a re-analysis of the deposited data

Results flagged for a closer look

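In hsp-otd over hsp-Otx2, dhd differed by -2.63 and bcd (BCD_r_at) by -0.67 on the log2 scale, both past the threshold of limma's test of that difference, and the bcd call passed in 9 of 17 settings. The value of osk (OSK-CDS-1_at) was -2.71, but osk was above the floor in hsp-Otx2 alone and so had to differ.

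Single arrays stood apart from their group in 2 of 38 combinations of probe set and group examined, and chance alone gives about 1 in 20. For tud, hsp-otd replicate 2 read 789.2, where the other hsp-otd arrays read 1081 to 1129. For piwi, untreated wild-type replicate 5 read 22.22, the only array of its group above the floor of 20, so this gap is small in intensity. The other arrays of the group were all set to the floor, so any value above it would have been flagged, and this case says nothing about the array.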

How the results depend on the processing

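Over the alternatives run on the named probe sets, 2789 of 3032 values kept their direction and their side of the threshold, 145 lost a call, 32 gained one and 66 changed sign. The cause of these changes was not tested. In counts of probe sets, the calls without normalization were 1289 in heat-shocked over untreated wild type (2770 as reported), 2378 in hsp-Otx2 over heat-shocked wild type (4577), 1837 in hsp-otd over hsp-Otx2 (3630), 1951 in hsp-otd over untreated wild type (3641) and 2683 in hsp-Otx2 over untreated wild type (4917). When the fit held the compared groups alone, the first count was 1532. Over all probe sets, unnormalized values had a median of -0.36 for heat-shocked over untreated wild type, 0.68 in hsp-otd and 0.29 in hsp-Otx2 over heat-shocked wild type, 0.26 in hsp-otd over hsp-Otx2 and 0.28 in hsp-otd over untreated wild type. The share of calls that were higher, in these 5 comparisons, was 14.7%, 92.8%, 86.4%, 71% and 76.1% without normalization and 35.1%, 71.6%, 60.4%, 57.1% and 63.9% with median scaling, against 45.8%, 53.8%, 47.1%, 53.3% and 53% as reported. In hsp-Otx2 over untreated wild type it was 58.4% without normalization, against 46.4%.

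Of the 9 genes, the number called in heat-shocked over untreated wild type was 1 without normalization, with a floor of 50 and with a generalised log, and 0 when the fit held the compared groups alone (2 as reported). With osk left out of the counts, 4 of 8 were called in hsp-Otx2 over heat-shocked wild type, 2 in hsp-otd over hsp-Otx2 and 6 in hsp-Otx2 over untreated wild type. In the fit of the compared groups 5 of the 9 were called in hsp-otd over hsp-Otx2 (3 as reported), and both counts include osk, which had to differ. In hsp-otd over untreated wild type 2 were called against replicates 4 and 5 alone, and 3 to 5 when single arrays were left out (5), the lowest without hsp-otd replicate 1 or 4.

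Values that changed sign without normalization were, in heat-shocked over untreated wild type, vas (-0.18) and gcl (-0.235). In hsp-otd over heat-shocked wild type they were bcd (0.20 for BCD_r_at, 0.043 for BCD_i_at), gcl (0.84), NOS-CDS-1_at (0.47) and Trx-2 (0.67). In hsp-Otx2 over heat-shocked wild type they were BCD_r_at (0.52), gcl (0.35), NOS-CDS-1_at (0.067), Trx-2 (0.41) and Txl (0.22), and in hsp-otd over hsp-Otx2 CG11296-CDS-1_at of pgc (0.16). Over untreated wild type they were BCD_r_at (0.33) and BCD_i_at (0.32) in hsp-otd and gcl (0.12) in hsp-Otx2. With median scaling the signs turned for gcl (0.27) and Trx-2 (0.095) in hsp-otd over heat-shocked wild type, and for BCD_r_at (0.17), gcl (0.0056) and Trx-2 (0.060) in hsp-Otx2. They also turned over untreated wild type for BCD_r_at (0.10) and BCD_i_at (0.092) in hsp-otd and for gcl (0.12) in hsp-Otx2.

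With array weights, vas (-0.061) in heat-shocked over untreated wild type and BCD_r_at (0.087) and BCD_i_at (0.033) in hsp-otd over untreated wild type turned. With a floor of 50, piwi (-0.087) in hsp-otd over heat-shocked wild type and NOS_at (0.055) in hsp-Otx2 over untreated wild type turned. Against untreated replicates 1 to 3 alone, tud (0.24) in heat-shocked wild type and gcl (0.16) in hsp-Otx2 turned. Against replicates 4 and 5 alone, vas (-0.17) and gcl (-0.020) turned in heat-shocked wild type, BCD_r_at (0.44), BCD_i_at (0.18) and gcl (-0.074) in hsp-otd, and tud (-0.30) and NOS_at (0.34) in hsp-Otx2.

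When single arrays were left out, values that turned ran from -0.046 to 0.49 for vas and from -0.093 to 1.001 for NOS_at in heat-shocked over untreated wild type, and from -0.27 to 0.79 for piwi in hsp-otd over heat-shocked wild type. In hsp-Otx2 over heat-shocked wild type they ran from -0.13 to 0.15 for BCD_r_at and from -0.26 to 1.52 for oc, and in hsp-otd over hsp-Otx2 from -0.069 to 0.088 for CG11296_at of pgc. Over untreated wild type they ran from -0.22 to 0.059 for BCD_r_at and from -0.37 to 0.32 for BCD_i_at in hsp-otd, and in hsp-Otx2 from -0.11 to 0.048 for gcl, from -0.059 to 0.57 for NOS-CDS-1_at and from -0.60 to 0.34 for NOS_at.

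Samples with the same replicate number had correlations of their deviations from -0.07 to 0.12 (median 0.002, 21 pairs). Those with different numbers had -0.14 to 0.12 (median 0.001, 74 pairs). No pairing by number was detected, though a weak one could be missed by this check. With a replicate block the calls among the 9 genes were 2 in heat-shocked over untreated wild type, 5 in hsp-otd and 5 in hsp-Otx2 over heat-shocked wild type, 3 in hsp-otd over hsp-Otx2, and 5 in hsp-otd and 7 in hsp-Otx2 over untreated wild type. The counts that involve hsp-Otx2 include osk, which had to differ there. No share of all genes under the block is set beside these counts, so they are no result about the members. Under the block tud (0.051) in heat-shocked over untreated wild type, BCD_r_at (0.074) in hsp-Otx2 over heat-shocked wild type, and BCD_i_at (0.0016) in hsp-otd and gcl (0.046) in hsp-Otx2 over untreated wild type changed sign. Signal limits osk and dhd most, since whole groups of arrays lay at the floor. Their folds against such groups are bounds, except for dhd in heat-shocked over untreated wild type, where untreated replicate 3 was at the floor too. Signal also limits piwi, which had arrays at the floor in 3 of 4 groups.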
